A study of Homo sapiens with 6 samples.

Results

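The genes described here are those of the insulin-like growth factor (IGF) system of binding proteins and receptors: IGFBP1, IGFBP2, IGFBP3, IGFBP4, IGFBP6, IGFBP7, IGF1R, IGF2R, INSR and IRS1. They were chosen by gene name from the deposited table, in which these 10 genes have 1 row each among 38170 features. Total RNA was sequenced from A549, an established human lung adenocarcinoma cell line. One group of 3 libraries overexpressed LOC401312, a long non-coding RNA, from a piggyBac transposon, which inserts its cargo into the genome, and the other group of 3 libraries carried an empty vector. Both groups are A549 cells grown in DMEM with 10% fetal bovine serum. The labels do not say which promoter drove the transcript, whether a line was 1 clone or a pool, or whether the 3 libraries of a group were grown apart. The p-values here therefore cover only the spread among these 6 libraries, and that spread may be technical.

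IGF1 and IGF2 are secreted growth factors that signal through the tyrosine kinase receptor IGF1R and, together with insulin, through its relative INSR. Both receptors phosphorylate adaptors such as IRS1, which recruit phosphatidylinositol 3-kinase and so feed AKT, mTOR and FOXO. The IGFBPs are secreted proteins that hold IGFs in the medium and matrix, prolong their life or keep them from the receptor, and proteases such as PAPPA release IGF again by cutting them. IGF2R, the cation-independent mannose 6-phosphate receptor, takes up IGF2 for degradation and also carries enzymes to lysosomes. In lung epithelium and lung cancer the system is studied as a growth and survival pathway.

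The libraries held 65823845 to 70202062 counts in LOC401312 and 60971105 to 73994619 counts in vector, and 19620 features had enough counts to be tested. The STEAP1B entry, within which LOC401312 lies, held 1342, 1356 and 1353 counts scaled to library size (CPM, per 1e6 counts) in LOC401312 libraries and 0.121, 0.184 and 0.374 CPM in vector libraries. For LOC401312 replicates 2 and 3 the genotype field and the title give different locus names, and this entry was as high in them as in replicate 1. CPS1, the urea cycle enzyme of the study's title, had 126, 121 and 121 CPM in LOC401312 libraries and 58.6, 56.4 and 59.0 CPM in vector libraries. Of 8 markers of A549 and carcinoma epithelium, all had counts, with a summed level of 15883 to 16430 CPM in LOC401312 and 16839 to 18006 CPM in vector; EPCAM, one of them, was low, with 149 to 201 counts in LOC401312 and 104 to 179 counts in vector. Some libraries also held transcripts of other cell types. Trophoblast markers (8 of 8 with counts) summed to 2.21 to 98.3 CPM in LOC401312, high in replicates 2 and 3, and to 1.28 to 2.21 CPM in vector. Urothelial and squamous markers (8 of 8) summed to 3.01 to 3.88 CPM in LOC401312 and 11.2 to 13.0 CPM in vector, and fibroblast markers (5 of 5) to 21.2 to 22.5 CPM in LOC401312 and 36.2 to 48.3 CPM in vector. These sums did not stand for every marker. In the A549 and carcinoma list CDH1 was called higher (log2 change of 0.48, edgeR adjusted p = 0.000131). AKR1C1 (-0.53), AKR1B10 (-0.45), NQO1 (-0.24) and ALDH1A1 (-0.12) were called lower, and KRT8, KRT18 and EPCAM were not called. KRT13, PSCA and ADIRF of the urothelial list and COL1A1 and COL1A2 of the fibroblast list were called lower in LOC401312, and KRT13 had 5, 0 and 0 counts there and 338, 253 and 286 counts in vector libraries. UPK1B and UPK2 (log2 changes of -0.10 and -0.17), DCN (-0.04) and LUM (0.11) overlapped between groups, and PDGFRB was at 0.712 CPM in LOC401312 and 0.344 CPM in vector, without overlap (1.04, edgeR adjusted p = 0.168). The haematopoietic marker PTPRC had 0, 8 and 0 counts in LOC401312 and 256, 4 and 0 counts in vector libraries. The haematopoietic list (5 of 5 with counts) summed to 11.6 to 13.5 CPM in LOC401312 and 10.7 to 17.5 CPM in vector, the endothelial list (4 of 4) to 1.06 to 2.40 and 1.61 to 1.82 CPM, and the hepatocyte list (5 of 5) to 0.220 to 0.255 and 0 to 0.337 CPM. The part of these transcripts in the results below was not tested beyond the libraries left out there. In bulk RNA, fewer cells of a type and less RNA per cell cannot be told apart.

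The sequences that lie just before the transcription starts of the binding protein genes discussed most are shown first, because 2 of them fell (IGFBP2 and IGFBP3), 1 neighbour rose (IGFBP5) and 1 dominates the family's expression (IGFBP4). They are the 250 bases upstream of the start in RefSeq (build GRCh38.p14), on the strand of the gene, from its promoter table, which held 8 of the 10 genes. IGFBP2 has 3 starts in that table, and the one at the first base of the deposited row and the next one, 592 bases downstream, are given. Capitals mark GGGCGG on either strand, the core of the GC box that factors such as SP1 bind. They also mark TATAAA, the usual core of a TATA box. The word CCAAT was searched as well and would be in capitals too. Each word was searched on both strands, and overlapping matches were counted. Only exact words were matched, so TATA-like and other variant stretches are not in capitals and were not counted.
IGFBP2, first start, chr2:216632578-216632827, plus strand: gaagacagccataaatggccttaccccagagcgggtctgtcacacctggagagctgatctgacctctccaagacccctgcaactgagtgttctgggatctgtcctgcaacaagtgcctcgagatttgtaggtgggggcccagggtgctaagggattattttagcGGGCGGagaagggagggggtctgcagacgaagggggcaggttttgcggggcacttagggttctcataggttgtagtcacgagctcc
IGFBP2, second start, chr2:216633170-216633419, plus strand: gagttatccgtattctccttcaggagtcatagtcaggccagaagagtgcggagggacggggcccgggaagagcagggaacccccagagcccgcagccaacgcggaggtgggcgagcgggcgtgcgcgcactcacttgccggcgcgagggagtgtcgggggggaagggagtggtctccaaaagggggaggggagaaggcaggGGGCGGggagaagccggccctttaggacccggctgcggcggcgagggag
IGFBP3, chr7:45921273-45921522, minus strand: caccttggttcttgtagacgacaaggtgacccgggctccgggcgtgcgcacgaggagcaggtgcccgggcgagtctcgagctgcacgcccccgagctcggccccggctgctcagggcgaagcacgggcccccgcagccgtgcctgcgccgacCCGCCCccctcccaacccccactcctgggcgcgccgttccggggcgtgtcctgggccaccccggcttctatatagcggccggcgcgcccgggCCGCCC
IGFBP5, chr2:216695550-216695799, minus strand: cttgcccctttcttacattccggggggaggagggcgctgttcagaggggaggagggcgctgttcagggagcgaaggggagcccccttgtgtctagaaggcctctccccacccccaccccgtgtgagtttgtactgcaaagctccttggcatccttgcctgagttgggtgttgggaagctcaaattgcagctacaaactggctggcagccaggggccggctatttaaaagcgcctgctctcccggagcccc
IGFBP4, chr17:40443200-40443449, plus strand: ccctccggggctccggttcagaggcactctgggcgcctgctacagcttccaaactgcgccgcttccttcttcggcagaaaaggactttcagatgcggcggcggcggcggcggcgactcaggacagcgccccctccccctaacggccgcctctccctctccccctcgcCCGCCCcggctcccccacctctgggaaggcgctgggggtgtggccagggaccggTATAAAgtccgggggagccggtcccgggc
Each of the IGFBP2 windows held 1 GC box word, IGFBP3 held 2, IGFBP4 held 1 together with a TATAAA whose first base lies 29 bases before the start, and the IGFBP5 window held none of the words. Among 35116 RefSeq promoter windows of this length, 42.6% held the GC box word, 10.7% TATAAA and 32% CCAAT, so the GC box is common and its presence is a description, not a site shown to be used. Of the other genes, IGF1R had 2 GC box words, IGF2R 6, INSR 4, IRS1 4 and IGFBP6 1 in the same window. G and C made up 76% of the IGFBP3 window, 71.6% of that of IGFBP4 and 69.2% of that of the second IGFBP2 start. The shares were lower for IGFBP5 (61.2%) and the first IGFBP2 start (56.8%).

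Levels between genes are compared in the deposited FPKM values, which are scaled for transcript length and library total. IGFBP4, a binding protein that inhibits IGF action until PAPPA cuts it, was by far the most abundant of the 10, at 594 ± 8.47 FPKM in LOC401312 and 605 ± 22.0 FPKM in vector (SD, n = 3 each). IGFBP6, which prefers IGF2 to IGF1, followed at 27.2 ± 2.39 FPKM in LOC401312 and 30.3 ± 2.64 FPKM in vector. IGF2R came next, at 15.0 ± 0.467 FPKM in LOC401312 and 13.6 ± 0.995 FPKM in vector, and then IGF1R at 14.3 ± 0.669 and 12.4 ± 0.540 FPKM in the same groups. IGFBP7, a relative with low affinity for IGF that is found in vessel walls and senescent cells, stood at 11.1 ± 0.416 FPKM in LOC401312 and 11.9 ± 0.251 FPKM in vector, and IRS1 at 10.9 ± 0.469 and 10.6 ± 0.550 FPKM. IGFBP2 had 5.60 ± 0.117 FPKM in LOC401312 and 8.32 ± 0.316 FPKM in vector, and IGFBP3, the main IGF carrier of serum, 4.54 ± 0.0351 and 6.45 ± 0.306 FPKM. Lowest were IGFBP1, whose transcription insulin represses in liver, with 1.33 ± 0.344 FPKM in LOC401312 and 1.41 ± 0.151 FPKM in vector, and INSR, with 1.25 ± 0.0173 and 0.997 ± 0.106 FPKM. The order was the same in both groups. Neighbours whose libraries overlapped were IGF2R and IGF1R in both groups, IGFBP7 and IRS1 and also IGFBP1 and INSR in LOC401312, and IGF1R and IGFBP7 in vector. IGFBP4 made up 92.0%, 92.6% and 92.2% of the summed FPKM of the 6 IGFBP genes in LOC401312 libraries and 91.3%, 91.1% and 91.2% in vector libraries. The ratio of IGF1R to INSR in FPKM was 12.2, 11.3 and 10.9 in LOC401312 libraries and 11.7, 13.5 and 12.2 in vector libraries, and the groups overlap.

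**Figure D1:**
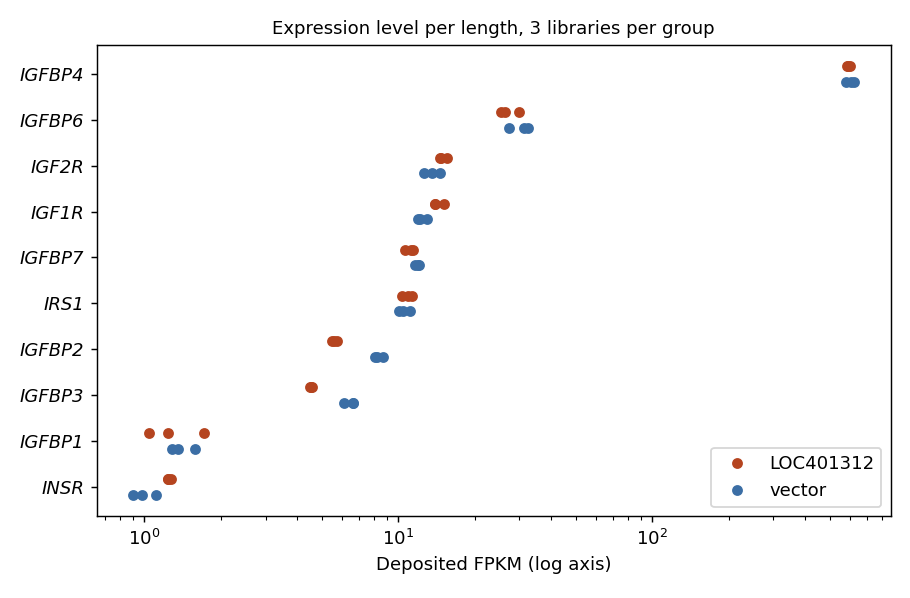
Deposited FPKM (log axis) of the 10 genes, listed by their level in vector, with LOC401312 libraries (red) above vector libraries (blue) and 1 point per library. IGFBP4, with means of 594 FPKM in LOC401312 and 605 FPKM in vector, lies more than an order of magnitude above the rest. Red points lie below blue ones without overlap for IGFBP2, IGFBP3 and IGFBP7, and above them for IGF1R, IGF2R and INSR. The FPKM values are shifted as a whole, by a median log2 change of 0.109.

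Between LOC401312 and vector, the question was whether any of these genes changed with the overexpressed RNA. IGFBP2 and IGFBP3 were lower in LOC401312 and none of the 10 was called higher (edgeR quasi-likelihood test, adjusted p under 0.05 over all features tested). At that threshold 8.72% of all tested features were called, 4.13% higher and 4.58% lower. At an unadjusted p under 0.05 IGF1R and INSR were the genes on the higher side, and DESeq2 also called none higher. The median log2 change of the 10 genes was -0.18 and that of all tested features -0.001. In 6 of the 10 the CPM of the groups did not overlap, 4 lower and 2 higher in LOC401312, against 27.9% of all tested features.

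IGFBP2 (ENSG00000115457; chromosome 2, 216632828 to 216664436, plus strand, GRCh38), an IGF2-preferring binding protein often raised in tumours, had 30.6, 30.1 and 30.6 CPM in LOC401312 libraries and 45.7, 52.4 and 49.8 CPM in vector libraries. The 3 LOC401312 libraries lay within 1 CPM of each other and well below the lowest vector library. It fell to 0.617-fold, a log2 change of -0.70 (SE 0.06, edgeR adjusted p = 0.000116). IGFBP3 (ENSG00000146674; chromosome 7, 45912245 to 45921274, minus strand) had 23.4, 23.8 and 24.2 CPM in LOC401312 libraries and 36.2, 38.6 and 35.7 CPM in vector libraries. Again the groups did not overlap, and the LOC401312 libraries were the more alike. It fell to 0.646-fold, a log2 change of -0.63 (SE 0.06, edgeR adjusted p = 0.000208). Both calls were kept in all 20 other settings, among them the fit with replicate 1 as the lone LOC401312 library, the one without the high trophoblast markers (log2 changes of -0.69 and -0.65, adjusted p = 0.0331 and 0.0341). Without vector replicate 1, which held PTPRC, they were -0.75 and -0.64. By exact permutation of the libraries (two-sided) p was 0.1 for IGFBP2 and 0.1 for IGFBP3. That is as low as 3 against 3, with 20 arrangements, can go. IGFBP4, IGFBP7, IGF1R and INSR, whose groups also did not overlap in CPM, had the same permutation p of 0.1. KRT13, PSCA, ADIRF, COL1A1 and COL1A2 were lower in the LOC401312 libraries as well, while the other markers of their lists were not called. The part of these transcripts in the falls of IGFBP2 and IGFBP3 was not tested.

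**Figure D2:**
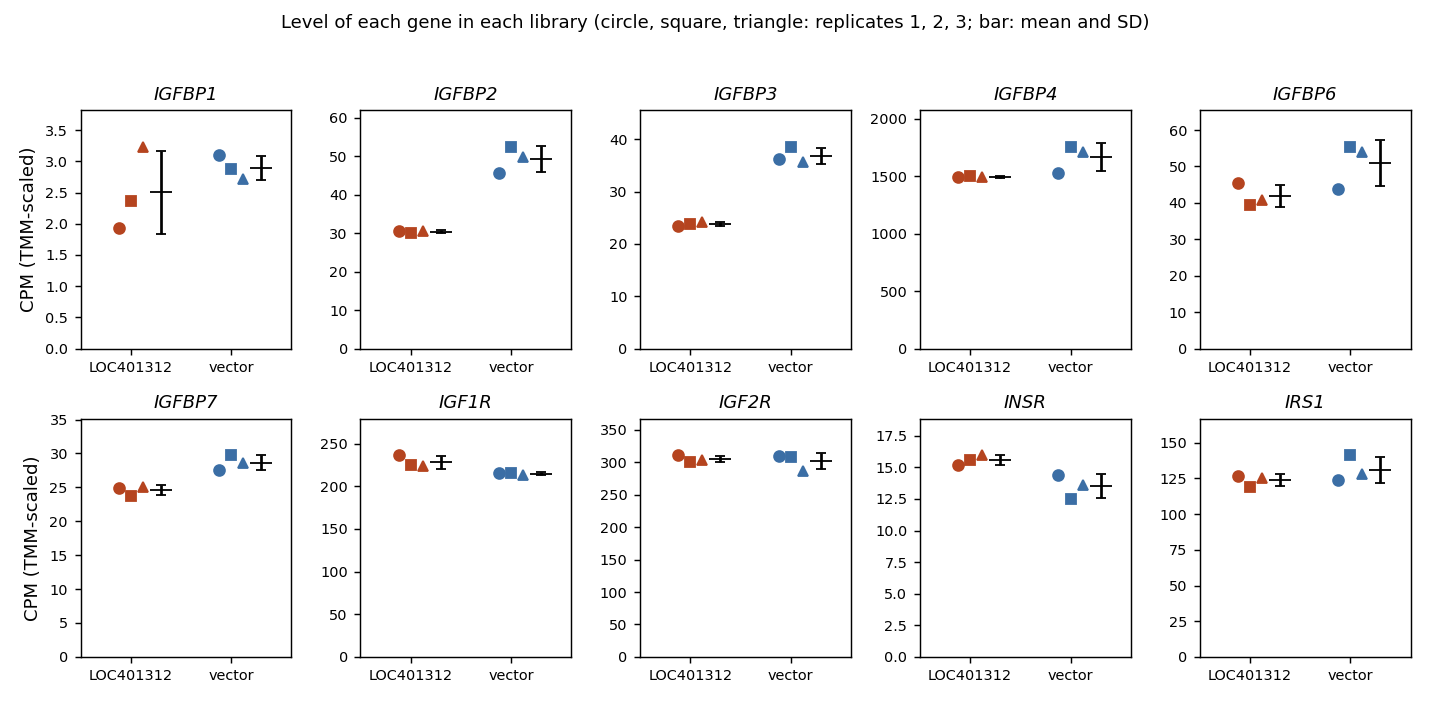
CPM of each of the 10 genes (axes start at 0, each panel on its own scale), with LOC401312 left of vector, 1 symbol per library and the mean with SD as a bar. IGFBP2 and IGFBP3 show separate groups, near 30 against 49 and near 24 against 37 CPM, while the other panels show smaller or no gaps.

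Chromosome 2, which carries IGFBP2 and IRS1, was lower as a whole in LOC401312: its 780 genes that averaged 4 CPM or more had a median log2 change of -0.233, and 90.1% were negative. Chromosome 12, with IGFBP6, had a median of 0.117 over 642 genes. The chromosomes of the other 7 genes had medians between -0.007 and 0.024. When every library was corrected for the median of each chromosome, IGFBP2 was still lower (-0.47, edgeR adjusted p = 0.0017), IGFBP3 stayed at -0.63 (0.000223) and IRS1 turned to 0.14 (0.194). IGFBP6 moved to -0.40 (edgeR adjusted p = 0.0278) and IGFBP4 was at -0.16 (0.0432), so that 4 of the 10 genes were called lower. Over all features this setting called 519 lower and 682 higher, against 899 and 811 without the correction. What moved whole chromosomes was not tested.

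**Figure D3:**
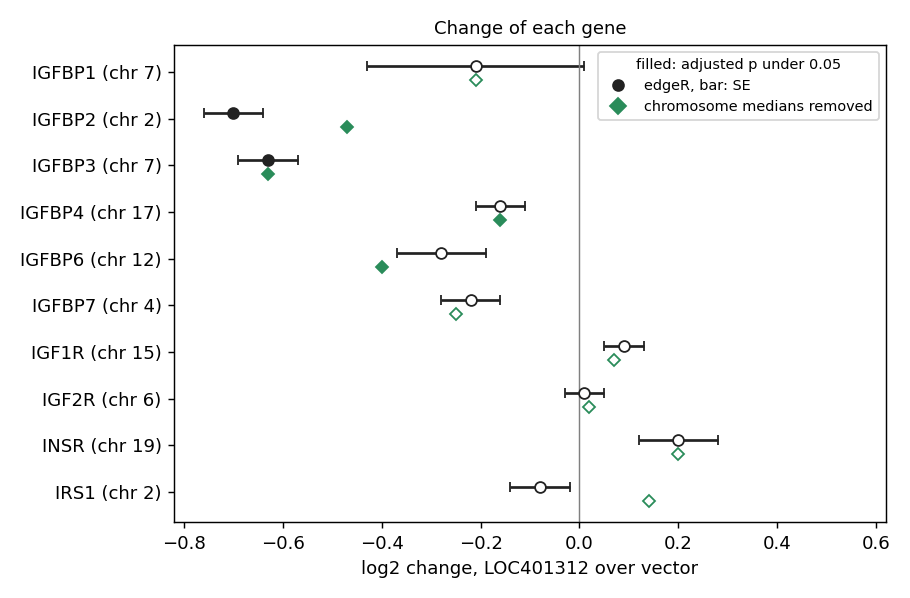
Log2 change of each gene, LOC401312 over vector, from edgeR (circles, bars are SE) and with the chromosome medians of each library removed (diamonds); filled symbols have an adjusted p under 0.05. IGFBP2 moves from -0.70 to -0.47 and IRS1 from -0.08 to 0.14, both on chromosome 2, and IGFBP3 stays at -0.63.

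The other 4 binding proteins had lower means in LOC401312 but did not pass the test. IGFBP4 (ENSG00000141753; chromosome 17, 40443450 to 40457725, plus strand) had 1494, 1504 and 1490 CPM in LOC401312 libraries and 1529, 1757 and 1714 CPM in vector libraries. Vector replicate 1 lay close to the LOC401312 libraries, but the groups did not overlap. Its log2 change was -0.16 (SE 0.05, edgeR adjusted p = 0.0777). It was called without vector replicate 1 (-0.21, adjusted p = 0.00214) and by DESeq2 (0.0058). In the deposited FPKM values its groups overlapped, with 603, 593 and 586 FPKM in LOC401312 and 582, 626 and 608 FPKM in vector, and its change was -0.03. Those values are shifted as a whole, with a median log2 change of 0.109 over genes with a mean of at least 5 FPKM, against -0.01 by DESeq2 on the counts. IGFBP4 is a small relative change at a very high level, and its call depended on the setting.

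IGFBP6 (ENSG00000167779; chromosome 12, 53097436 to 53102345, plus strand) had 45.4, 39.5 and 40.9 CPM in LOC401312 libraries and 43.8, 55.4 and 54.0 CPM in vector libraries. The groups overlapped through vector replicate 1, and the log2 change was -0.28 (SE 0.09, edgeR adjusted p = 0.0803). Without that library it was -0.38 (adjusted p = 0.00691), and DESeq2 called it on all 6 (0.0167). IGFBP7 (ENSG00000163453; chromosome 4, 57030773 to 57110385, minus strand) had 24.9, 23.7 and 25.1 CPM in LOC401312 libraries and 27.6, 29.8 and 28.6 CPM in vector libraries. The groups did not overlap, and the log2 change was -0.22 (SE 0.06, edgeR adjusted p = 0.0643). Its last 386 bases overlap those of POLR2B on the other strand, which had 8462 to 10796 counts against 1619 to 2047 for IGFBP7, so reads in the overlap could not be told apart and the IGFBP7 value is uncertain. Features that overlap IGF1R or IGF2R held at most 91 counts, against 12902 or more for those genes. IGFBP1 (ENSG00000146678; chromosome 7, 45888360 to 45893660, plus strand) had 1.93, 2.36 and 3.24 CPM in LOC401312 libraries and 3.10, 2.88 and 2.72 CPM in vector libraries. LOC401312 replicate 3 was above all vector libraries and the others were below them, and the log2 change was -0.21 (SE 0.22, edgeR adjusted p = 0.65). It rested on 136 to 230 counts, where counting error alone is 8.57% at the lowest count.

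The binding protein genes stand in neighbouring pairs. IGFBP1 and IGFBP3 lie tail to tail on chromosome 7, 18584 bases apart, and IGFBP3 fell while the value of IGFBP1 was -0.21 with an SE as large. IGFBP2 and IGFBP5 lie tail to tail on chromosome 2, 7668 bases apart. IGFBP5 (ENSG00000115461; 216672105 to 216695549, minus strand), a matrix-bound binding protein and the one other classical IGFBP gene of the table, had 4.35, 6.45 and 4.91 CPM in LOC401312 libraries and 0.795, 2.09 and 0.959 CPM in vector libraries. It rose 4.10-fold, a log2 change of 2.04 (SE 0.34, edgeR adjusted p = 0.0049), opposite in direction to its neighbour and to the median of its chromosome. It stayed a minor transcript, at 0.707 ± 0.136 FPKM in LOC401312 and 0.153 ± 0.0839 FPKM in vector (SD, n = 3 each). With replicate 1 as the lone LOC401312 library its change was 1.77 (adjusted p = 0.191), no longer called.

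None of the receptors or IRS1 passed the test. IGF1R (ENSG00000140443; chromosome 15, 98648539 to 98964530, plus strand) had 237, 225 and 223 CPM in LOC401312 libraries and 216, 216 and 213 CPM in vector libraries. All LOC401312 libraries were above all vector libraries, by a small margin, and the log2 change was 0.09 (SE 0.04, edgeR adjusted p = 0.212). In limma on log2(FPKM + 0.1) it was 0.21 (adjusted p = 0.0491), of which 0.109 is the shift of those values, and it was not called after rescaling each library to one sum (0.15, adjusted p = 0.0621). INSR (ENSG00000171105; chromosome 19, 7112255 to 7294414, minus strand), whose A and B isoforms share this row, had 15.16, 15.55 and 15.97 CPM in LOC401312 libraries and 14.39, 12.53 and 13.61 CPM in vector libraries. The groups did not overlap, and the log2 change was 0.20 (SE 0.08, edgeR adjusted p = 0.187).

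IGF2R (ENSG00000197081; chromosome 6, 159969082 to 160113507, plus strand) had 311, 301 and 304 CPM in LOC401312 libraries and 310, 309 and 287 CPM in vector libraries. The groups overlapped, with a log2 change of 0.01 (SE 0.04, edgeR adjusted p = 0.888) that was -0.02 without vector replicate 3. IRS1 (ENSG00000169047; chromosome 2, 226731317 to 226799759, minus strand) had 126, 119 and 126 CPM in LOC401312 libraries and 124, 141 and 128 CPM in vector libraries. These also overlapped, with a log2 change of -0.08 (SE 0.06, edgeR adjusted p = 0.425), which lies above the chromosome 2 median of -0.233.

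Around these genes, 9 lists of 90 IGF pathway genes were read from the same fit. Of the 82 tested, 15 rose, 3 fell and 64 did not pass, and their median log2 change was 0.06. That is 22% called, beside 8.72% of all tested features, and the lists were not tested as sets. The shares are not like for like, because all tested features include many with few counts, which are harder to call. The lists were also chosen with earlier results of these data known. With replicate 1 as the lone LOC401312 library each of the 18 kept its direction, for example FBXO32 at 1.20, ITGB1 at 0.09 and TXNIP at -2.36. A fit with 1 library in a group can call few features of any kind, so a call lost there does not set a gene apart. With chromosome medians removed 12 of the 18 kept their call, in a setting that called 682 higher and 519 lower over all features, against 811 and 899.

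Among ligands, other binding proteins and the carrier subunit, 4 genes were tested, IGFBP5 rose and 3 did not pass (list median -0.23). IGF1 and INS were not analysed here. IGF2, the ligand shared by IGF1R, IGF2R and one INSR isoform, had 66, 152 and 205 counts in LOC401312 libraries and 135, 370 and 412 counts in vector libraries, with overlapping groups and a log2 change of -1.24 (SE 0.49, edgeR adjusted p = 0.166). In each group replicate 1 was the lowest, and without vector replicate 1 IGF2 was called lower (-1.63, adjusted p = 0.0278).

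Of 11 tested IGFBP proteases and their stanniocalcin inhibitors, 4 rose and 7 did not pass (median 0.22). HTRA1, a secreted serine protease that cuts IGFBP5, had 94.1, 101 and 94.4 CPM in LOC401312 libraries and 68.0, 70.8 and 71.2 CPM in vector libraries, a log2 change of 0.46 (SE 0.05, edgeR adjusted p = 0.000296). ADAM12, a metalloprotease that cuts IGFBP3 and IGFBP5, had 15.3, 19.9 and 19.0 CPM in LOC401312 and 10.65, 11.01 and 9.17 CPM in vector (0.81, SE 0.12, adjusted p = 0.00243). PAPPA, the IGFBP4 protease, was abundant, with 540, 516 and 556 CPM in LOC401312 and 468, 470 and 450 CPM in vector (0.22, SE 0.04, adjusted p = 0.00839), and its inhibitor STC1 rose as well (0.23, SE 0.05, adjusted p = 0.0213). These 4 had no overlap between groups. Trophoblast also expresses PAPPA and ADAM12, and the trophoblast markers were high in LOC401312 replicates 2 and 3. With replicate 1 as the lone LOC401312 library, PAPPA was at 0.22 (adjusted p = 0.175) and ADAM12 at 0.58 (0.183), neither of them called, and the part of trophoblast transcripts was not tested. PAPPA2, a placental relative of PAPPA, had enough counts in too few libraries to be tested. It had 7, 160 and 170 counts in LOC401312 libraries and 4, 0 and 0 counts in vector libraries. PAPPA2 thus followed the libraries with trophoblast markers.

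Of 7 tested partners that bind IGFBPs at the surface or in the cell, 3 rose and 4 did not pass (median 0.03). Of the 4 integrin subunits in the list, ITGA5, ITGB1 and ITGB3 were called. ITGAV, a partner of ITGB3, was at 227 CPM in LOC401312 and 228 CPM in vector (0.00, SE 0.06, edgeR adjusted p = 0.981); it lies on chromosome 2 and was at 0.22 (0.0618) with chromosome medians removed. ITGB3 rose to 20.5, 18.3 and 18.3 CPM in LOC401312 libraries, against 8.79, 10.4 and 10.4 CPM in vector libraries (0.95, SE 0.10, edgeR adjusted p = 0.000326), and ITGA5, a subunit of the fibronectin receptor that IGFBP1 can bind, to 133, 131 and 128 CPM against 97.6, 100 and 97.4 CPM (0.41, SE 0.04, adjusted p = 0.000234). Its partner ITGB1 changed little (0.12, SE 0.03, adjusted p = 0.0491). ITGA5 lies on chromosome 12 and was at 0.29 (0.0017) with chromosome medians removed.

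Of the 3 IGF2 mRNA-binding proteins, which bind RNA and are unrelated to the IGFBPs, IGF2BP2 rose by 0.28 (SE 0.08, edgeR adjusted p = 0.0467) and the remaining 2 were not called (list median 0.09). Of 8 tested genes of receptor maturation and mannose 6-phosphate sorting, GNPTAB, which makes the sorting tag that IGF2R reads, rose by 0.25 (SE 0.05, adjusted p = 0.0188), and the 7 others were not called (median 0.09). GNPTAB lies on chromosome 12 and was at 0.14 (0.183) with chromosome medians removed.

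Downstream of the receptors, 16 adaptor and PI3K-AKT genes were tested. SHC1, an adaptor to the RAS pathway, rose by 0.16 (SE 0.04, edgeR adjusted p = 0.0213), and the 15 others were not called (median 0.04). Of 9 negative regulators, GRB14, an inhibitor of the insulin receptor kinase on chromosome 2, fell by 0.82 on the log2 scale (SE 0.19, adjusted p = 0.0236), and was at -0.60 (0.0962) with chromosome medians removed; the other 8 did not pass (median 0.12). A list of 10 genes held subunits of the mTOR complexes with regulators and targets of mTOR. In it TSC2, a brake on mTOR, rose by 0.18 (SE 0.04, edgeR adjusted p = 0.0347). EIF4EBP1, a repressor of translation that mTOR inactivates, fell by 0.34 on the log2 scale (SE 0.05, adjusted p = 0.00341). The other 8 did not pass (list median -0.05), among them the complex subunits MTOR, RPTOR, RICTOR, MLST8 and DEPTOR.

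Of 14 tested FOXO factors and genes that FOXO is known to induce, 3 rose, 1 fell and 10 did not pass (median 0.11). The muscle-atrophy ubiquitin ligase FBXO32 rose to 39.4, 34.5 and 35.8 CPM in LOC401312 libraries, against 17.9, 16.6 and 17.1 CPM in vector libraries (1.09, SE 0.07, edgeR adjusted p = 2.92e-05). SESN3, a stress-induced inhibitor of mTOR signalling, rose by 0.83 (SE 0.17, adjusted p = 0.0139), and PDK4, a kinase that turns off pyruvate dehydrogenase, by 0.25 (SE 0.04, adjusted p = 0.00377). TXNIP, which binds thioredoxin, was called lower (-2.22, SE 0.58, adjusted p = 0.0424), but with 53, 40 and 77 counts in LOC401312 and 551, 185 and 64 counts in vector its groups overlapped, and vector replicate 1 carried much of the size: without it the change was -1.31 (adjusted p = 0.12). The 4 FOXO factors of the list did not pass, and IGFBP1, itself a FOXO-induced gene in liver, was at -0.21.

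**Figure D4:**
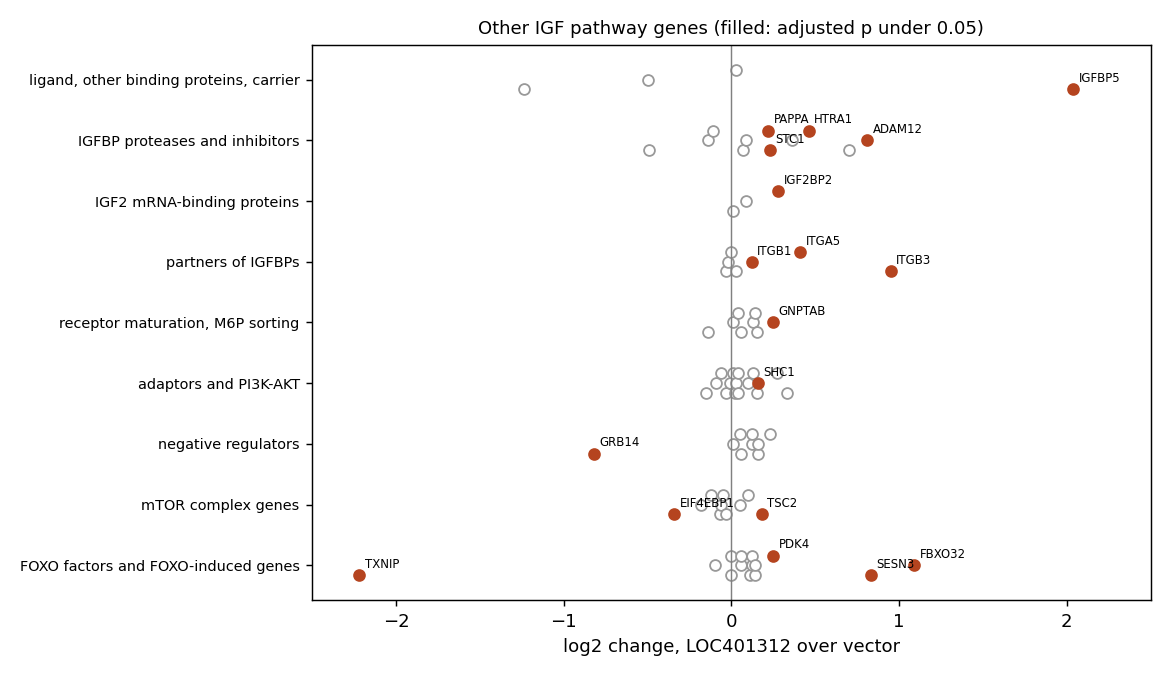
Log2 change, LOC401312 over vector, of the 82 tested genes of 9 IGF pathway lists, 1 row per list, with filled and named points for an adjusted p under 0.05. IGFBP5 (2.04), FBXO32 (1.09) and ITGB3 (0.95) are far to the right, TXNIP (-2.22) and GRB14 (-0.82) to the left, and most points are near 0.

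Leaving out 1 library in turn kept IGFBP5, HTRA1, ADAM12, ITGA5, ITGB3, EIF4EBP1, FBXO32 and PDK4 called each time (adjusted p up to 0.0321). It ended the calls of PAPPA (vector replicate 3, adjusted p = 0.0514), SESN3 (LOC401312 replicate 1 or 3 or vector replicate 3, up to 0.0693) and STC1 (any LOC401312 library, up to 0.0863). The call of SHC1 ended when vector replicate 3 or 1 of the LOC401312 libraries was dropped (up to 0.0919), and GRB14 without LOC401312 replicate 1 or 2 or vector replicate 1 or 3 (up to 0.106). GNPTAB, IGF2BP2, ITGB1 and TSC2 lost their calls whenever a library other than vector replicate 1 was dropped (up to 0.0813, 0.143, 0.165 and 0.167), and TXNIP whenever one other than vector replicate 3 was (up to 0.158).

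The features most like IGFBP2, the member called with the smallest p, were PCBP1, LXN and TBC1D2, whose log2 CPM over the 6 libraries had a Pearson correlation of 0.9981 to 0.9985 with it and log2 changes of -0.32, -0.73 and -0.64. These are the 3 highest of all features that averaged 4 CPM or more, and the 6 points share the difference between the groups.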

How the data were processed

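The deposited table gives raw counts and FPKM for 6 libraries, per the file headers. Its counts are whole numbers per gene and were deposited without normalization. FPKM, in the authors' scaling, corrects for transcript length and library total. Per the submitters' processing notes, cutadapt 1.9, FastQC and build GRCh38 (hg38) were used; the aligner, the counter, the annotation release and the strand setting were not named in the sources at hand, so reads of genes that overlap on opposite strands could not be separated. All transcripts of a gene share its row.

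Titles gave the groups. The whole count table was fitted with edgeR 4.0.16 in R 4.3.3 (quasi-likelihood test, TMM scaling, filterByExpr, no covariates, Benjamini-Hochberg adjustment, threshold 0.05). SE was taken as the log2 change over the root of F, and CPM uses TMM-adjusted totals. No 2 libraries of a group agreed within counting noise (chi-square over degrees of freedom 13.7 to 22.9). Each was counted as 1 replicate, but this check cannot show whether the libraries were grown apart. DESeq2 1.42.0 and limma 3.58.1 on log2(FPKM + 0.1) were alternatives. The code was tested on simulated data.

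The genes and lists were chosen with earlier results of these data known. All 10 members are named, with up to 4 called genes per list and direction by p. IGF2, ITGAV, PAPPA2, PIK3R2 and single marker genes were named after their values were seen. No per-sample column was left unused.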

Additional observations from a re-analysis of the deposited data

How the results depend on the processing

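Of 199 values of the 10 genes under 20 other settings, 182 kept direction and side of the threshold. IGFBP2 and IGFBP3 were called lower in each setting (-0.75 to -0.47 and -0.65 to -0.43), and IGFBP1, at about 3 CPM, gave no value with a filter at 4 CPM. IGFBP4 became called by DESeq2 (-0.15), with the 4 CPM filter (-0.15), in a robust fit (-0.16) and with chromosome medians removed (-0.16), IGFBP6 by DESeq2 (-0.28) and with chromosome medians removed (-0.40), and IGFBP7 with the 4 CPM filter (-0.22). The number of the 10 called lower was 4 with DESeq2, with the 4 CPM filter and with chromosome medians removed, instead of 2. Over all features these settings called 1140, 971 and 519 lower, in that order, against 899 in the fit used here. IGF1R was called higher, as 1 of the 10, by limma on log2(FPKM + 0.1) (0.21) and log2(FPKM + 1) (0.20). IRS1 turned positive with chromosome medians removed (0.14) and by limma with pseudocounts of 0.1, 1 or 0.01 or with no filter (0.04 each). The cause was not tested beyond the shift of the FPKM values.

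Leaving out 1 library moved IGFBP4 between -0.21 and -0.12, IGFBP6 between -0.38 and -0.22 and IGF2R between -0.02 and 0.03, with 2 to 4 of the 10 called lower. Over all features it left 393 to 963 higher and 439 to 1042 lower, against 811 and 899. With replicate 1 as the lone LOC401312 library, assumed to vary like vector, 84 were called higher and 91 lower. With all 6 libraries and no filter, edgeR called 586 higher and 577 lower. With all 6 libraries and chromosome medians removed, 682 were higher and 519 lower (56.8% higher). Limma on log2(FPKM + 0.1) gave 1599 higher and 308 lower (83.8% higher against 47.4% here), with a pseudocount of 1 gave 1584 and 303, with 0.01 gave 1573 and 297, after rescaling to one sum 453 lower (67.8% higher) and with no filter 180 lower (82.4% higher). With the replicate number as a block, 509 were higher and 579 lower, and the calls of the 10 genes did not change. Of the 18 called pathway genes 12 kept their call under the block, IGF2BP2 (adjusted p = 0.104), ITGB1 (0.136), SHC1 (0.0853), STC1 (0.071), TSC2 (0.112) and TXNIP (0.125) did not, and IGF2 became called (-1.19, adjusted p = 0.0125); same-numbered libraries share only a number (correlations of their deviations -0.104, -0.0466 and -0.0244). ITGAV, near 0, turned to 0.00 with DESeq2, no filter or the block, 0.02 with total-count scaling, 0.22 with chromosome medians removed, and 0.13, 0.12, 0.13, 0.07 and 0.13 by limma with 0.1, 1, 0.01, one sum and no filter, and ranged from -0.06 to 0.08 with 1 library left out. PIK3R2 ranged from -0.24 (without vector replicate 3) to 0.75 with 1 library left out. Depth limits IGFBP1 most, at 136 to 230 counts.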

Other observations

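PIK3R2, a regulatory subunit of phosphatidylinositol 3-kinase, had 3189, 1751 and 3332 counts in LOC401312 libraries and 3496, 2883 and 33 counts in vector libraries. Vector replicate 3 was far below the rest, and the log2 change was 0.33 (SE 0.84, edgeR adjusted p = 0.876), or -0.24 (0.649) without that library.

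The summed FPKM of the 6 IGFBP genes was 655, 640 and 635 in LOC401312 libraries and 638, 687 and 667 in vector libraries, with overlapping groups. IGFBP3 was 0.753%, 0.761% and 0.782% of IGFBP4 in FPKM in LOC401312 libraries and 1.141%, 1.058% and 1.003% in vector libraries, without overlap.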
